A study of Mus musculus with 6 samples.

Results

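The kainate receptor genes Grik1, Grik2, Grik3, Grik4 and Grik5 and the genes of their auxiliary proteins, Neto1 and Neto2, were described in the hippocampus of control mice and of mice carrying an Rbfox1 transgene. Members were the isoforms whose name, without its final number, is one of these 7 gene symbols, which gave 38 isoforms of 133944 and 7 genes of 53354 symbols. Of the 38 isoforms, 5 had no read pair in any mouse and 26 passed the filter on low counts, which kept isoforms with about 10 read pairs in at least 3 of the mice. Together the members held 23216 to 35362 read pairs per mouse, or 0.0555% to 0.0589% of each library.

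Kainate receptors are glutamate-gated cation channels built of 4 subunits. GluK1, GluK2 and GluK3, encoded by Grik1, Grik2 and Grik3, can form channels on their own, whereas GluK4 and GluK5, encoded by Grik4 and Grik5, bind kainate with high affinity and reach the cell surface only together with one of the first group. Neto1 and Neto2 are single-pass membrane proteins that join the receptor and slow its kinetics. In the hippocampus the receptors are best known from the mossy fiber synapses between dentate granule cells and CA3 pyramidal cells, where they act on both sides of the synapse, and from interneurons.

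RNA-seq was performed on 1 hippocampal library per mouse from 3 N-cre and 3 N-cre;Fox1 mice, all 3 months old and C57BL/6. N-cre mice, the controls, carry Cre recombinase under the nestin promoter (Nes-Cre), which all 6 mice share. The genotype named N-cre;Fox1 is R26-Rbfox1 +/flox together with Nes-Cre. It adds 1 allele at Gt(ROSA)26Sor on chromosome 6, in which the CAG promoter drives an Rbfox1 cDNA once Cre has removed a STOP cassette. The allele was made in CJ7 (129/sv) embryonic stem cells and moved to the C57BL/6J background, so that donor-strain DNA near it cannot be told apart from the transgene. No member gene lies on chromosome 6. Rbfox1 is an RNA-binding protein of neurons that regulates splicing and transcript stability, and the comparison asks which isoforms differ in mice that carry the transgene.

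The libraries held 40463587 to 62141336 read pairs, and p-values measure the spread between mice. Levels are given in CPM, the usual unit that scales the read pairs of a gene by the size of its library. The gene sum of Rbfox1 was 279.2 ± 8.04 CPM in N-cre and 281.5 ± 23.1 in N-cre;Fox1 hippocampus (SD, n = 3 each), and N-cre;Fox1 replicate 2 was the lowest of the 6 mice at 255.8 CPM. An increase of total Rbfox1 RNA was thus not detectable in these libraries (log2 fold change 0.01, 95% limits -0.115 to 0.138, adjusted p = 0.992). Its isoform Rbfox1-202 was at 34.1 ± 1.28 and 43.75 ± 2.56 CPM, higher in all 3 of the N-cre;Fox1 mice. It did not pass edgeR's test over all isoforms (adjusted p = 0.623). The gene sum covered the 2 Rbfox1 isoforms in the files, of 8 in GENCODE M21, a later annotation. For hippocampi of this genotype the paper reports a modest increase of Rbfox1 mRNA, without showing the data, and of Rbfox1 protein by immunoblot. The gene sum given here did not show the increase of mRNA. Neuronal markers (Rbfox3, Snap25, Syt1 and Tubb3) summed to 3611 to 3854 CPM in controls and 3512 to 3747 CPM with the transgene, and every marker of CA1, CA3 and dentate granule cells was detected in each mouse. Choroid plexus markers (Ttr, Kl, Folr1 and Clic6) summed to 2226 CPM in N-cre replicate 3 and to 5009 CPM in N-cre;Fox1 replicate 2, against 26.1 to 35.7 CPM in the other mice. Both libraries thus held RNA of a tissue next to the hippocampus, and results that turn on them are given also without them. Xist was high in replicate 1 of each genotype, and in no other mouse. In tissue RNA, fewer cells of a type and less RNA per cell cannot be told apart.

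Some of the isoforms differ by whole introns or long last exons and others by short coding stretches. The short stretches below are shown because they set apart the coding isoforms of Grik1, Grik2 and Neto2 and the decay isoforms of Grik5 that are described later. All were read from the GENCODE M21 transcripts of mm10, lie on the minus strand and are written 5′ to 3′. Capitals mark a stop codon. Grik1-211 holds a coding exon of 45 nt (chr16:87955289-87955333) that Grik1-201 and Grik1-202 lack and that adds 15 residues. Grik1-202 holds a coding exon of 87 nt near its 3′ end (chr16:87896809-87896895) that adds 29 residues. Grik2-204 has an extra exon whose coding part of 48 nt (chr10:49105018-49105065) ends the protein at 869 residues, in place of 908 in Grik2-202 and Grik2-207. In Grik5-207 an extra exon brings a stop codon after 126 nt (chr7:25061214-25061339), and in Grik5-202 an exon runs 25 nt further (chr7:25067985-25068009), which shifts the reading frame. Both Grik5 isoforms are annotated as targets of nonsense-mediated decay, by which cells degrade transcripts with an early stop codon. In Neto2-205 an exon runs 21 nt further than in Neto2-201 (chr8:85663387-85663407).
Grik1-211 exon of 45 nt: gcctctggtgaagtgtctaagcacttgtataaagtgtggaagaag
Grik1-202 exon of 87 nt: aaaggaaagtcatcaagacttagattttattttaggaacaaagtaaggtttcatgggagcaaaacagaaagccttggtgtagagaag
Grik2-204 last coding part: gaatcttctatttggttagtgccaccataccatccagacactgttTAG
Grik5-207 exon up to the stop codon: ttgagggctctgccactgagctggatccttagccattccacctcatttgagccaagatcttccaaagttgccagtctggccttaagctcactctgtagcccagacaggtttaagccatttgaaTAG
Grik5-202 exon extension: gtgagcggggcctcaggggcgtggg
Neto2-205 exon extension: gtattttaaatcccattccag

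Levels of different genes were compared as TPM, in which the read pairs of each isoform are divided by its annotated length and scaled to the same total in each library. Grik5 was the most abundant member, at 165.1 ± 6.32 TPM over the 6 mice (SD). Grik4 followed at 38.3 ± 2.02, Grik2 at 31.1 ± 1.59, Grik3 at 20.4 ± 0.917, Neto2 at 18.7 ± 0.945, Neto1 at 16.7 ± 0.778 and Grik1 at 10.4 ± 0.425 TPM. Transcripts of the high-affinity subunits thus led those of the subunits that form channels alone. Grik5 exceeded Grik4 by a mean ratio of 4.31, which ranged from 4.03 to 4.55 between mice. In this order 5 of the 6 pairs of neighbours kept their order in 6 of 6 mice (exact paired permutation test, two-sided, p = 0.0312, the smallest that 6 mice allow, Benjamini-Hochberg adjusted p = 0.0374 over the 6 pairs). The order was taken from the means of these same mice, so the test is no independent evidence for it. Error in the lengths is also left out of the test. Grik3 and Neto2 were not separated beyond their spread, with a mean ratio of 1.09, the same order in 5 of 6 mice and an exact permutation p of 0.0625. The order of Grik2, Grik3 and Grik4 rested on the lengths: dividing by the longest protein-coding isoform put Grik3 (9.03% of the 5 subunits) above Grik2 (7.55%), and read pairs without division by length put Grik3 (16.5%) and Grik2 (14.5%) above Grik4 (13.6%). The place of Neto1 rested on 1 isoform, whose length was taken from a later version of that transcript. Neto2 above Neto1 rested on length as well: Neto1 made up 47.2% of the pair per annotated length, 49.6% with the longest protein-coding length and 59.5% in read pairs without division by length.

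Transcripts of the channel-forming subunits were summed over isoforms and compared between the genotypes on the CPM scale, with positions given in mm10. Grik1 (GluK1, chr16:87895900-88290265, minus strand), a subunit prominent in interneurons, had 14.9, 14.8 and 14.4 CPM in N-cre replicates 1 to 3 and 15.55, 13.97 and 14.9 CPM in N-cre;Fox1 replicates 1 to 3. The N-cre;Fox1 mice held both the highest and the lowest value. Its log2 fold change in N-cre;Fox1 against N-cre was 0.01 (SE 0.0654, 95% limits -0.13 to 0.16, adjusted p = 0.992), and -0.02 without N-cre;Fox1 replicate 1. Grik2 (GluK2, chr10:49094833-49788766, minus strand), the main channel-forming subunit of principal neurons, had 68.5, 68.6 and 65.5 CPM in N-cre and 69.0, 68.0 and 73.1 CPM in N-cre;Fox1 mice. N-cre;Fox1 replicate 3 was highest and N-cre replicate 3 lowest, while the other 4 mice lay between 68.0 and 69.0. For Grik2 the log2 fold change was 0.05 (SE 0.0385, 95% limits -0.03 to 0.14, adjusted p = 0.908). Grik3 (GluK3, chr4:125490700-125714173, plus strand), which forms receptors of low glutamate sensitivity, had 80.7, 79.1 and 79.8 CPM in N-cre and 73.0, 81.1 and 75.5 CPM in N-cre;Fox1 mice. Replicates 1 and 3 of N-cre;Fox1 lay below all controls and replicate 2 above them. The log2 fold change of Grik3 was -0.06 (SE 0.0409, 95% limits -0.15 to 0.03, adjusted p = 0.889), and -0.10 without the libraries high in choroid plexus markers (adjusted p = 0.786).

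**Figure D1:**
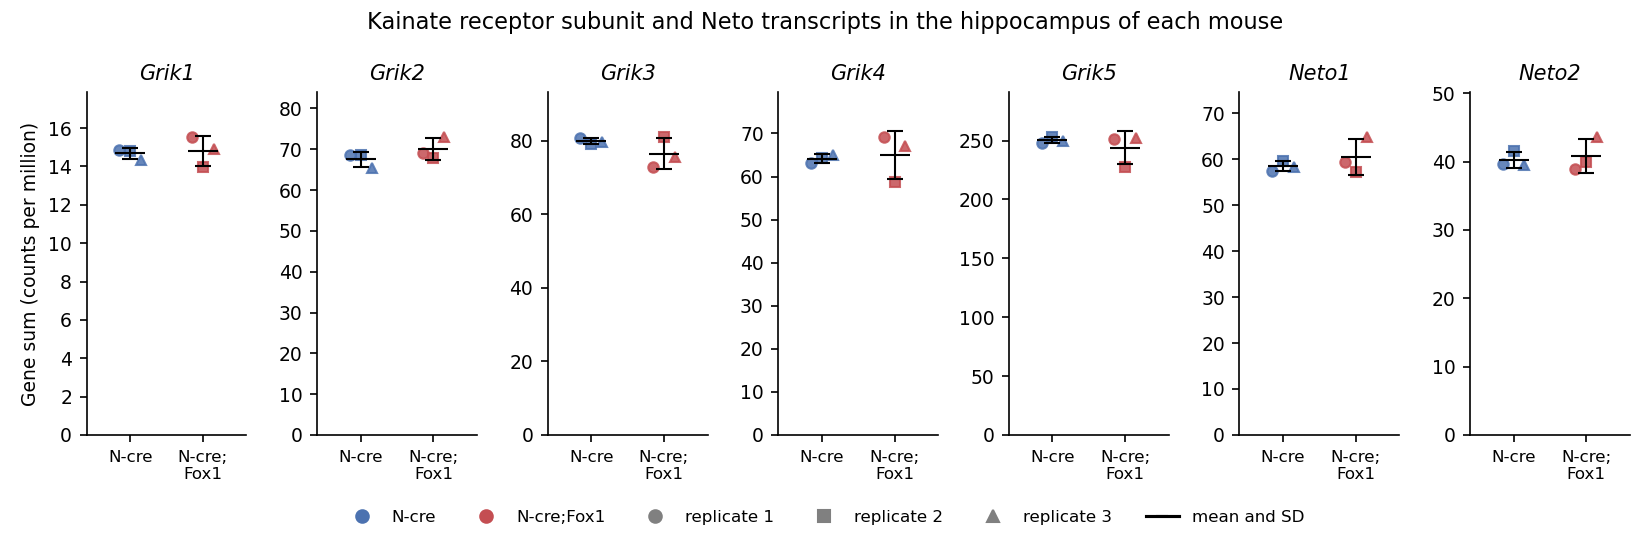
Gene sums in CPM (vertical axes, from 0) of the 7 genes in each mouse, by genotype; symbols mark the replicate, and black lines the mean and SD of 3 mice. The N-cre and N-cre;Fox1 values overlap in all 7 panels, and N-cre;Fox1 replicate 2 is lowest for Grik4 (58.8) and Grik5 (227.9).

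All 7 members had a larger SD in N-cre;Fox1 mice than in controls, at 5.54 and 0.977 CPM for Grik4, 13.9 and 2.65 CPM for Grik5 and 4.15 and 0.804 CPM for Grik3. The share of all genes with a larger SD was not computed, so this cannot be called particular to the members. Within a genotype, libraries differed most in pairs with N-cre;Fox1 replicate 2, with a chi-square per gene of 38.1 and 33.7 against counting noise. The other pairs had 6.62 to 16.8. Grik4 (GluK4, chr9:42518135-42944493, minus strand), a subunit known for its expression in CA3 pyramidal cells, had 63.1, 64.2 and 65.1 CPM in N-cre and 69.2, 58.8 and 67.2 CPM in N-cre;Fox1 mice. Replicates 1 and 3 of N-cre;Fox1 lay above all controls and replicate 2, the library with the most choroid plexus RNA, below them. The log2 fold change was 0.02 (SE 0.0565, 95% limits -0.11 to 0.15, adjusted p = 0.986). It was -0.02 without N-cre;Fox1 replicate 1, -0.003 without N-cre;Fox1 replicate 3, and 0.10 without both libraries high in choroid plexus markers (adjusted p = 0.813). Grik5 (GluK5, chr7:25009849-25072346, minus strand), the partner subunit found in most native receptors, had 248.1, 253.3 and 250.0 CPM in N-cre and 251.6, 227.9 and 252.3 CPM in N-cre;Fox1 mice. Again N-cre;Fox1 replicate 2 stood below the other 5 mice. The log2 fold change of Grik5 was -0.04 (SE 0.0431, 95% limits -0.13 to 0.06, adjusted p = 0.953), and 0.01 without N-cre;Fox1 replicate 2.

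For the auxiliary proteins no difference passed the test either. Neto1 (chr18:86394952-86506718, plus strand), which sits with kainate receptors in CA3 pyramidal cells, had 57.5, 59.65 and 58.3 CPM in N-cre and 59.3, 57.2 and 64.9 CPM in N-cre;Fox1 mice. Neto2 (chr8:85636588-85700924, minus strand), the more widely expressed of the pair, had 39.6, 41.6 and 39.5 CPM in N-cre and 38.9, 39.9 and 43.65 CPM in N-cre;Fox1 mice. For both genes N-cre;Fox1 replicate 3 was highest, and the genotypes overlapped. The log2 fold changes were 0.05 for Neto1 (SE 0.0467, 95% limits -0.06 to 0.15, adjusted p = 0.938) and 0.02 for Neto2 (SE 0.0504, 95% limits -0.09 to 0.13, adjusted p = 0.982). Without N-cre;Fox1 replicate 3 they were -0.005 and -0.03.

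At the level of genes, 0 of the 7 members passed the test in edgeR's quasi-likelihood fit over 18924 genes, in which 5 genes (0.0264%) were called. At an unadjusted p under 0.05 the count was also 0 of 7, against 6.19% of all genes tested, and 0 of 7 had genotypes that did not overlap, against 12.2%. DESeq2 and limma-voom called 0 of the 7 as well. The 95% limits of all 7 log2 fold changes lay between -0.15 and 0.16, and differences within these limits could not be told from the spread between 3 mice. The median log2 fold change was 0.02 over the 7 genes and 0.00 over all genes tested.

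The proportions of the subunits were then computed from TPM within each mouse, which removes differences in library size. Grik5 made up 62.6%, 63.1% and 63.1% of the Grik1 to Grik5 transcripts in N-cre replicates 1 to 3 and 61.9%, 60.8% and 61.8% in N-cre;Fox1 replicates 1 to 3. All 3 N-cre;Fox1 mice lay below all controls. The means were 62.9% ± 0.313 and 61.5% ± 0.573 (SD, n = 3 each), a difference of -1.43 percentage points with p = 0.1, the smallest that a two-sided exact permutation test of 3 against 3 can give, and an adjusted p of 0.333 over the 5 proportions. Grik4 made up 14.1% ± 0.364 and 14.8% ± 0.531, Grik2 11.3% ± 0.479 and 12.15% ± 0.399, Grik3 7.80% ± 0.142 and 7.62% ± 0.805, and Grik1 3.86% ± 0.136 and 3.96% ± 0.0776. These 4 overlapped between the genotypes, with exact permutation p-values of 0.2 to 0.9. Among the proportions 1 of 5 was without overlap, but this count changed when mice were left out and with the lengths. It was 3 without N-cre replicate 1 or without N-cre;Fox1 replicate 2, and 2 without N-cre replicate 3 or without N-cre;Fox1 replicate 1. Without both libraries high in choroid plexus markers it was 3. Fewer mice overlap less often by construction, so these counts cannot be set against that of all 6 mice. In all 6 mice the count was 0 with the length of the longest protein-coding isoform, and 2 with protein-coding isoforms only.

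**Figure D2:**
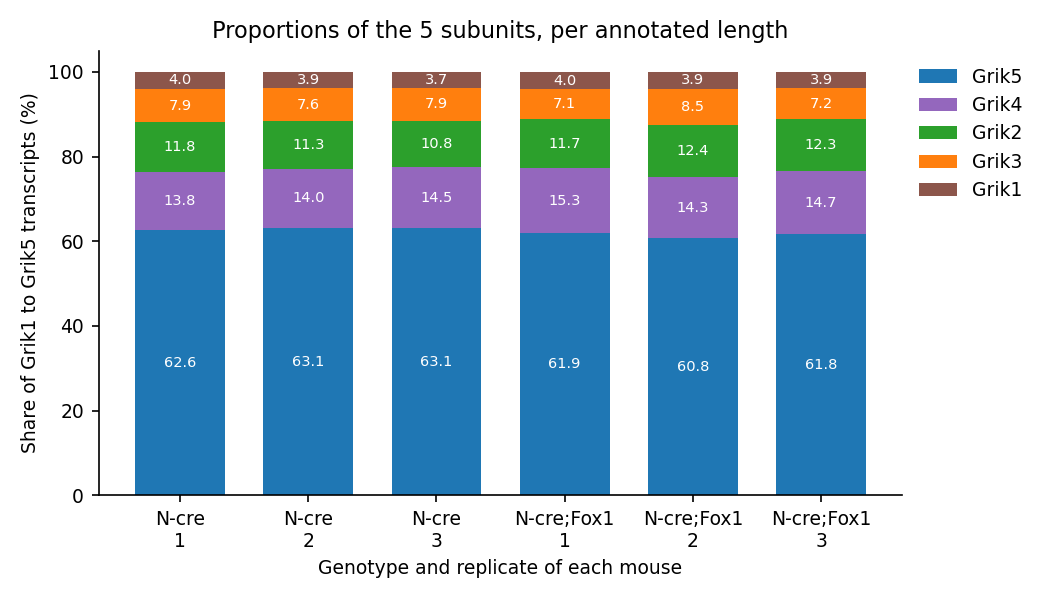
Share of each subunit in the Grik1 to Grik5 transcripts of each mouse, in percent of the transcripts per annotated length, stacked to 100% in each bar; the printed numbers are the shares. Grik5 takes 62.6% to 63.1% in the N-cre and 60.8% to 61.9% in the N-cre;Fox1 mice.

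Grouped by role, Grik4 and Grik5 together took 76.7% of the subunit transcripts over the 6 mice, with 75.1% to 77.6% in single mice, and the genotypes overlapped. Of the channel-forming subunits, Grik2 made up 49.8%, 49.6% and 48.3% in N-cre and 51.3%, 49.9% and 52.6% in N-cre;Fox1 mice. All N-cre;Fox1 values were above the controls, though the closest values were 49.82% and 49.88%. Of the high-affinity subunits, Grik5 made up 81.7% ± 0.336 in N-cre and 80.6% ± 0.444 in N-cre;Fox1 mice, again without overlap. These within-role shares were formed after the values were seen and are given without a test. Neto1 made up 46.9% ± 0.213 and 47.5% ± 1.34 of the Neto1 and Neto2 transcripts, a difference of 0.623 points (exact permutation p = 0.5), and -0.0356 points without N-cre;Fox1 replicate 1.

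Isoform shares are given as the percent of the read pairs of a gene that RSEM assigned to the isoform. Grik3 and Neto1 had 1 isoform each in the files. Shares of the other 5 genes were compared for 24 isoforms, of which 5 did not overlap between the genotypes, 3 of them lower and 2 higher in N-cre;Fox1 mice, against 11.2% of shares without overlap over all genes. The shares of a gene sum to 100%, so the Grik4 pair, which makes up 2 of the 5, moved as 1. The smallest p was 0.1, as low as 3 against 3 mice can go in the exact permutation test, and the smallest adjusted p was 0.48, so that no share passed. Without N-cre replicate 1 the number without overlap was 8, without N-cre replicate 3 it was 9, without N-cre;Fox1 replicate 2 it was 8, and without both libraries high in choroid plexus markers it was 12. Fewer mice overlap less often by construction, and the share over all genes was computed for all 6 mice only. Among protein-coding isoforms only, the number in all 6 mice was 3.

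**Figure D3:**
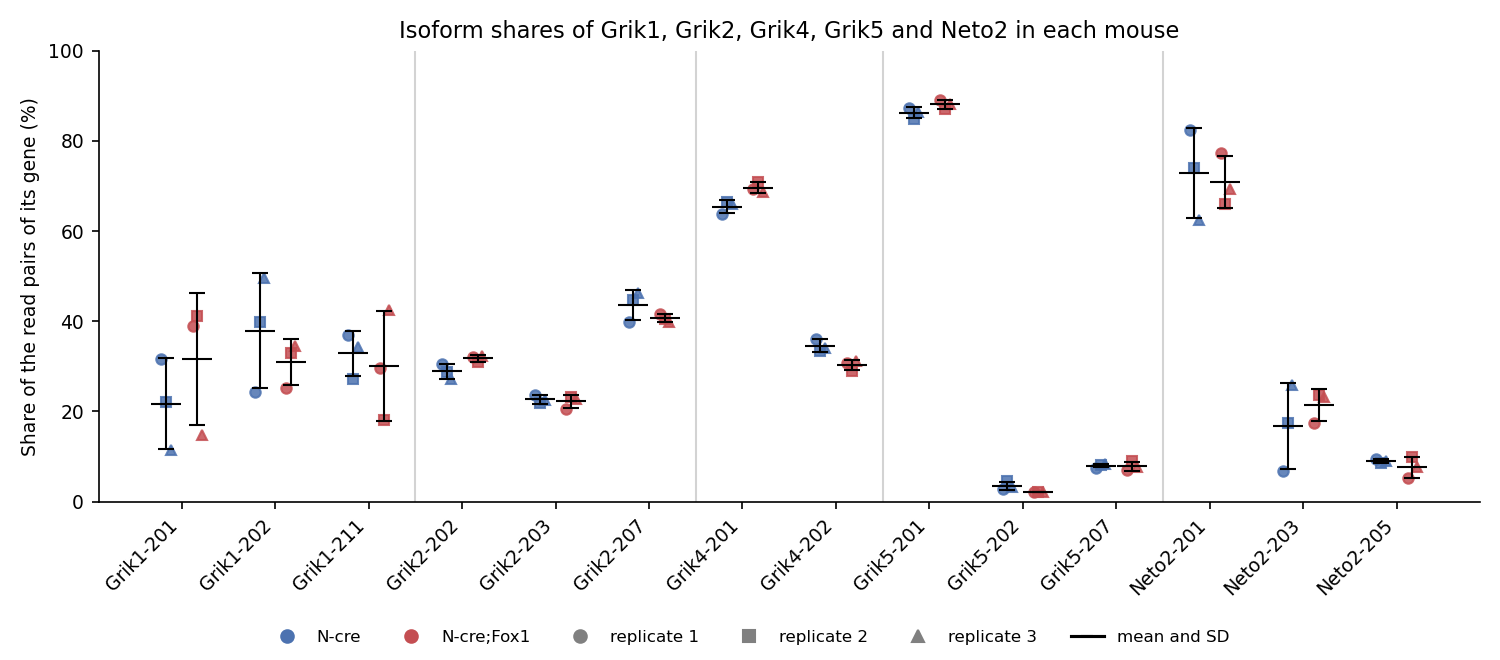
Share of the read pairs of its gene (vertical axis, percent) that each isoform took in each mouse, for isoforms with at least 5% of their gene on average and for Grik5-202; symbols mark the replicate and black lines the mean and SD of 3 mice. Shares of Grik1 and Neto2 isoforms spread widely between mice of 1 genotype, while Grik4-202 lies at 33.5% to 36.2% in controls and 29.0% to 31.3% in N-cre;Fox1 mice.

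Grik1 transcripts were divided among 3 protein-coding isoforms, and the division varied widely between mice of 1 genotype. Grik1-201, which lacks both the 45 nt and the 87 nt exon, took 31.7%, 22.2% and 11.4% in N-cre and 38.9%, 41.2% and 14.8% in N-cre;Fox1 mice. Grik1-202, with the exon of 87 nt, took 24.4%, 39.9% and 49.5% in N-cre and 25.1%, 33.05% and 34.6% in N-cre;Fox1 mice. Grik1-211, with the exon of 45 nt, took 37.0%, 27.2% and 34.4% in N-cre and 29.5%, 18.2% and 42.6% in N-cre;Fox1 mice. The genotypes overlapped for all 3. Without both libraries high in choroid plexus markers, the difference in the share of Grik1-201 went from 9.88 to -0.0707 percentage points, that of Grik1-202 from -7.02 to -2.30 and that of Grik1-211 from -2.76 to 3.94. The share of Grik1-211 turned also without N-cre;Fox1 replicate 2 alone, to 3.19 points. In N-cre replicate 3 the share of Grik1-201 rested on 66 of 582 read pairs after rounding, or 11.34% (Wilson 95% interval 9.01% to 14.2%, for counting error only), which is narrower than the range of 11.4% to 41.2% over the 6 mice. None of the 3554 nt of Grik1-201 and none of the 3655 nt of Grik1-202 lie outside the other Grik1 isoforms, so their read pairs were told apart by junctions and by the model alone. Grik1-202 shares the exon of 87 nt only with Grik1-209, which had no read pair in any mouse. Retained-intron isoforms of Grik1 took 7.45% ± 3.02 and 7.20% ± 0.781.

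Most Grik2 read pairs fell on Grik2-207, with a long last exon, and on Grik2-202, which encode the same number of residues. Per annotated length the order was another, with 39.3% for Grik2-202, 26.7% for the retained-intron isoform Grik2-203 and 23.2% for Grik2-207 over the 6 mice. Grik2-207 took 39.9%, 44.8% and 46.3% in N-cre and 41.65%, 40.5% and 39.9% in N-cre;Fox1 mice. Grik2-202 took 30.6%, 28.8% and 27.2% in N-cre and 32.2%, 30.9% and 32.3% in N-cre;Fox1 mice. In each of the 3 N-cre;Fox1 mice Grik2-202 took more than in any control, by 2.94 points on average. The closest mice of the genotypes lay at 30.6% and 30.9%. None of the 3992 nt of Grik2-202 lie outside the other Grik2 isoforms, so its read pairs were told apart by junctions and by the model alone. The level of Grik2-202 was 19.6 ± 1.63 CPM in N-cre and 22.3 ± 1.28 CPM in N-cre;Fox1 mice, which overlapped (log2 fold change 0.19, SE 0.0824, adjusted p = 0.99). The retained-intron isoform Grik2-203 took 22.7% ± 0.941 and 22.2% ± 1.38, and 51.3% of its 4365 nt belong to no other Grik2 isoform. The libraries were made from total RNA, which also holds unspliced transcripts. Among full-length coding isoforms, those of 908 residues made up 95.3% ± 1.10 in N-cre and 94.8% ± 0.912 in N-cre;Fox1 mice, and those of 869 residues, which carry the exon ending in TAG printed above, 4.04% ± 0.835 and 4.26% ± 0.741.

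Both Grik4 isoforms encode 956 residues and differ in where they start and in the length of the last exon. Grik4-201 took 63.8%, 66.5% and 65.95% in N-cre and 69.3%, 71.0% and 68.7% in N-cre;Fox1 mice. The longer Grik4-202 took 36.2%, 33.5% and 34.05% in N-cre and 30.7%, 29.0% and 31.3% in N-cre;Fox1 mice. All 3 N-cre;Fox1 mice lay below all controls for Grik4-202, by 4.24 points on average. Its level was 22.2 ± 0.687 CPM in N-cre and 19.8 ± 2.32 CPM in N-cre;Fox1 mice, also without overlap, with a log2 fold change of -0.17 (SE 0.0949, 95% limits -0.40 to 0.06, adjusted p = 0.99), and of -0.08 without N-cre;Fox1 replicate 2. Grik4-201 was at 42.1 ± 1.42 and 45.3 ± 3.22 CPM, which overlapped (log2 fold change 0.11, SE 0.0628, adjusted p = 0.99). The share of Grik4-202 stayed lower in N-cre;Fox1 mice when each mouse was left out in turn, by 3.44 to 4.79 points, and by 3.86 points without the libraries high in choroid plexus markers. Of Grik4-202, 43.3% of 5887 nt lie in no other isoform, but of Grik4-201 only 2.2% of 3413 nt do. Among the annotated isoforms Grik4-202 thus has sequence of its own, unlike Grik1-201 and Grik1-202. Read pairs in the stretches that both Grik4 isoforms share were divided by junctions and by the model.

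Grik5 was carried by 1 protein-coding isoform. Grik5-201 took 87.4%, 84.9% and 86.5% in N-cre and 89.1%, 87.02% and 88.2% in N-cre;Fox1 mice, which overlapped. The decay isoform Grik5-207 took 8.01% ± 0.415 and 7.86% ± 1.02, also with overlap. The other decay isoform, Grik5-202, took 2.78%, 4.50% and 3.18% in N-cre and 2.06%, 2.08% and 2.09% in N-cre;Fox1 mice. Here all 3 N-cre;Fox1 mice were lower and close together, while the controls spread, with N-cre replicate 2 highest. The difference in share was -1.41 points, and -0.902 without that mouse. Both decay isoforms together took 11.5% ± 1.21 and 9.94% ± 1.03, with overlap. The 3 retained-intron isoforms Grik5-203, Grik5-205 and Grik5-206 together took 2.19% ± 0.140 and 1.92% ± 0.0572, without overlap and lower in N-cre;Fox1 mice.

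In CPM, Grik5-202 was at 6.92, 11.4 and 7.95 in N-cre and at 5.19, 4.75 and 5.28 in N-cre;Fox1 mice. The controls all lay above the N-cre;Fox1 mice. The means were 8.76 ± 2.36 and 5.07 ± 0.285 CPM, with a log2 fold change of -0.79 (SE 0.198, 95% limits -1.27 to -0.31), an unadjusted p of 0.00658 in edgeR's quasi-likelihood fit across all isoforms and an adjusted p of 0.897. Over the alternatives the adjusted p ranged from 0.104, with DESeq2, to 1, and the log2 fold change was -0.55 without N-cre replicate 2. Of the 3597 nt of this isoform only the extension of 25 nt printed above, with a GC content of 80.0%, is in no other Grik5 isoform. The extension begins with gt, where the intron begins in Grik5-201.

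Neto2 was divided by its first exon. Neto2-201 took 82.4%, 74.0% and 62.5% in N-cre and 77.3%, 66.0% and 69.3% in N-cre;Fox1 mice. Neto2-203, which starts from an upstream first exon, took 6.90%, 17.5% and 25.98% in N-cre and 17.35%, 23.75% and 23.1% in N-cre;Fox1 mice. The genotypes overlapped for both isoforms. The difference in the share of Neto2-203 was 4.62 percentage points, 8.04 without both libraries high in choroid plexus markers, 9.21 without N-cre replicate 3 and -0.327 without N-cre replicate 1. That of Neto2-201 was -2.11 points, and -4.91, -7.36 and 2.60 in the same settings, and 0.339 without N-cre;Fox1 replicate 2. Neto2-205 starts from the same upstream exon and holds the extension of 21 nt, and took 8.98% ± 0.475 and 7.60% ± 2.26, with overlap. Among protein-coding isoforms the upstream first exon accounted for 26.1% ± 9.69 and 29.05% ± 5.71, with single mice between 16.5% and 35.9%. In N-cre replicate 3 the share of Neto2-203 rested on 416 of 1602 read pairs (Wilson 95% interval 23.9% to 28.2%). The interval covers counting error only, and none of the 4936 nt of Neto2-203 lie outside the other Neto2 isoforms, so error in the assignment of read pairs is not in it.

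Over all isoforms, 0 of the 26 members tested passed edgeR's quasi-likelihood test at an adjusted p under 0.05, against 0% of 50556 isoforms. The lowest adjusted p of a member was 0.897. At an unadjusted p under 0.05 there was 1 of 26, Grik5-202, against 4.78% of all isoforms. CPM values did not overlap between the genotypes for 4 of 26, against 11.5% of all isoforms. These 4 were Grik4-202, Grik5-202, Grik5-203 and Grik5-206, all lower in N-cre;Fox1 mice. Of the 26, 10 had a higher and 16 a lower mean in the fit, with a median log2 fold change of -0.04 against 0.00 over all isoforms. DESeq2 and limma-voom called 0 of the 26.

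**Figure D4:**
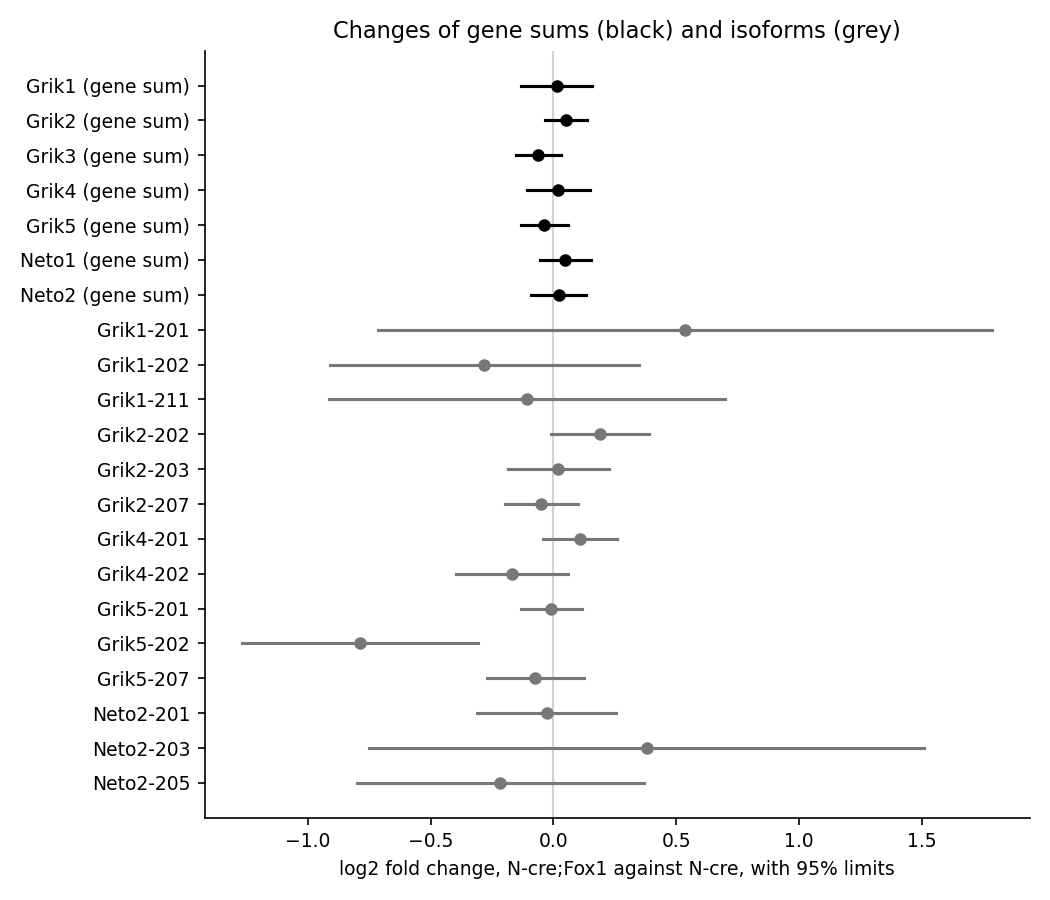
Log2 fold change in N-cre;Fox1 against N-cre mice (horizontal axis; points) with 95% limits (lines), for the gene sums of the 7 members in black and for their isoforms in grey. The limits of the gene sums all cross 0 and stay between -0.15 and 0.16, those of Grik1-201 run from -0.72 to 1.79, and the limits of Grik5-202 alone among the isoforms shown lie on 1 side of 0.

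Genes whose products bind, edit, move or organize kainate receptors were read from the same fit. Of 21 genes listed, 20 were tested, of which 11 had a higher and 9 a lower mean with the transgene and 0 passed at an adjusted p under 0.05, with a median log2 fold change of 0.003. An unadjusted p under 0.05 was reached by 2 of 20, against 6.19% of all genes tested, and their values follow as a description. C1ql2, a protein secreted at mossy fiber synapses that recruits kainate receptors, had 52.9, 50.9 and 51.9 CPM in N-cre and 57.9, 51.9 and 59.3 CPM in N-cre;Fox1 mice. These overlapped at replicate 2 of N-cre;Fox1 (log2 fold change 0.12, SE 0.0494, unadjusted p = 0.0361, adjusted p = 0.799 in edgeR). Senp1, a protease that removes SUMO, a modification that drives GluK2 into the cell, had 17.4, 16.6 and 16.5 CPM in N-cre and 18.55, 19.3 and 19.1 CPM in N-cre;Fox1 mice. All 3 N-cre;Fox1 mice were above all controls (log2 fold change 0.17, SE 0.0552, unadjusted p = 0.0103, adjusted p = 0.713 in edgeR). The 4 most abundant of the list did not pass: Snap25, which takes part in the internalization of GluK5-containing receptors, was at a log2 fold change of -0.005, the fusion ATPase Nsf at 0.01, the scaffold Dlg4 (PSD-95) at -0.03 and beta-catenin (Ctnnb1) at 0.02. Adarb1, the enzyme that edits the pore codon of Grik1 and Grik2 transcripts, was at 0.004.

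Markers of the cells in which these receptors work were compared beside the members. Of the 5 CA1 markers 0 had a higher and 5 a lower mean in N-cre;Fox1 mice, with sums of 667.8 to 734.3 CPM in controls and 600.6 to 668.1 CPM with the transgene. Of the 5 CA3 markers 2 were higher and 3 lower, with sums of 105.6 to 114.1 and 108.8 to 111.5 CPM. Of the 5 dentate granule cell markers 4 were higher, C1ql2 among them, and 1 lower, with sums of 184.7 to 202.7 and 181.9 to 223.6 CPM. An unadjusted p under 0.05 in edgeR was reached by 2 of these 5, against 6.19% of all genes tested in either direction. They were C1ql2 and Trpc6 (log2 fold change 0.285, unadjusted p = 0.00118 in edgeR), both higher. For Trpc6 all 3 N-cre;Fox1 mice were above all controls. Of the 6 interneuron markers 1 was higher and 5 lower, with sums of 731.7 to 802.0 and 748.4 to 768.8 CPM. At an unadjusted p under 0.05 in edgeR there were 1 of 6 interneuron markers (Vip, lower) and 1 of 5 CA3 markers (Nectin3, higher). For the CA1 markers the count was 0 of 5. The astrocyte markers summed to 1470 to 1492 CPM in controls and 1556 to 1759 CPM with the transgene, without overlap. Of these 5 markers 3 had a higher and 2 a lower mean. All 3 of the higher ones had an unadjusted p under 0.05 in edgeR, or 3 of 5 against 6.19% of all genes tested in either direction. Gfap carried the sum: without it, a choice made after its values were seen, the sums were 1034 to 1041 CPM in controls and 1027 to 1113 CPM with the transgene, which overlapped. The 4 thalamus and striatum markers, of tissue beside the hippocampus, summed to 18.5 to 20.4 CPM in controls and 15.98 to 18.1 CPM with the transgene, without overlap. Of the 4, 1 had a higher mean, Tcf7l2 (log2 fold change 0.17), and 3 a lower mean. Rgs9 and Adora2a were lower at an unadjusted p under 0.05 in edgeR, or 2 of 4 against 6.19% of all genes tested in either direction. Of all markers compared here 0 passed the adjusted threshold in edgeR, and their part in the members' values was not tested.

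For each member, the gene whose level followed it most closely over the 6 mice was taken from 13730 genes (mean normalized count 100 or more), by the Pearson correlation of log2(CPM + 0.1), as a description. These were Thoc5 for Grik1 (r = 0.998), Slc2a3 for Grik2 (0.988), Ero1lb for Grik3 (0.992), Klhl2 for Grik4 (0.992), Mlf2 for Grik5 (0.997), Snx24 for Neto1 (0.979) and Mrps18c for Neto2 (0.990). Between 13 and 103 genes had an r above 0.95 with a member. These values are the highest of a search over all candidates in 6 mice, whose libraries were scaled together and differ in choroid plexus RNA.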

How the data were processed

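RNA-seq of hippocampal total RNA (stranded library kit, paired reads of 150 nt) covered 3 N-cre and 3 N-cre;Fox1 mice, grouped by their labels. The authors used cutadapt 1.18 for trimming and STAR 2.5.2b for mapping to mm10, and deposited RSEM 1.3.0 expected counts per isoform on GENCODE M16, not normalized. Whether RSEM used strand is not given in the sources used here. Expected counts were summed by gene symbol where genes were tested, then rounded and filtered with filterByExpr (minimum count 10, minimum total 15). They were compared in R 4.3.3 with edgeR 4.0.16 (quasi-likelihood, robust, TMM, genotype only), with Benjamini-Hochberg adjustment over all features and a threshold of 0.05. CPM used TMM-scaled libraries. Lengths and positions came from GENCODE M21, which has 130921 of the 133944 isoforms in the same version. Shares and proportions were compared by exact permutation tests (SciPy 1.17.1), two-sided. Intervals of shares were Wilson intervals.

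Named were all 7 genes, isoforms with at least 5% of their gene or an unadjusted p under 0.05, Rbfox1, partner genes with an unadjusted p under 0.05 or among the 4 most abundant, and the best correlated gene of each member. Adarb1, the 4 isoforms without overlap, and the isoform classes were chosen after their values were seen. The members and lists were chosen with earlier results of these data known.

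Data were simulated with 200 features changed by a factor of 2, drawn only from features above a floor of mean counts. In these data edgeR called 189 of 200 genes (10.8% of its 212 calls were false) and 81 of 200 isoforms (12.0% of 92 false). Recovery of features with few read pairs was thus not measured. A test of isoform usage, diffSpliceDGE, called 21 of 168 changed genes with 77.2% of its 92 calls false, so its calls are not used here. For Grik1, Grik2, Grik4, Grik5 and Neto2 it gave an adjusted p of 1. The alternatives were scaling by upper quartiles or by DESeq2 size factors, a filter of at least 10 counts in every mouse or of only 1 count in total, testing with DESeq2 1.42.0 or limma-voom (limma 3.58.1), unrounded counts, a block for the replicate number, a term for mice with Xist counts above 1000, other lengths and isoform sets, and each mouse left out in turn. Leaving out the libraries high in choroid plexus markers was added after seeing the data. EBSeq, the authors' test, was not run. With it, after a filter on TPM, the paper reports many differentially expressed isoforms between these genotypes. Here edgeR called 0 of 50556. The partner gene Klhl17 was not analysed here.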

Additional observations from a re-analysis of the deposited data

How the results depend on the processing

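In all 16 alternatives to the fits, 0 of the 7 member genes and 0 of their tested isoforms were called. Over all features, 5 genes and 0 isoforms were called, against 45 genes and 10 isoforms with no filter beyond 1 count, 6 isoforms with at least 10 counts in every mouse, 50 genes and 215 isoforms with DESeq2, 1 isoform with counts not rounded, 11 genes with the Xist term, and 2 to 29 genes with each mouse left out in turn. Which genes these were was not compared. The replicate numbers did not pair the mice (correlations of same-numbered mice of 0.378, -0.095 and -0.211; 1 of the 3 N-cre mice correlated best with its own number), and with the number as a block 0 of 7 genes and 0 isoforms of the members were called. The signs of uncalled log2 fold changes turned when single mice were left out, with ranges of -0.019 to 0.055 for Grik1, -0.022 to 0.091 for Grik4, -0.063 to 0.011 for Grik5, -0.005 to 0.089 for Neto1 and -0.030 to 0.059 for Neto2, and for isoforms of -0.442 to 0.176 for Grik1-211, -0.036 to 0.076 for Grik2-203, -0.042 to 0.044 for Grik5-201, -0.010 to 0.083 for Neto1-201, -0.138 to 0.055 for Neto2-201, -0.002 to 0.813 for Neto2-203 and -0.424 to 0.001 for Neto2-205. Without both libraries high in choroid plexus markers, which left 2 mice per genotype, 4 turned: Grik5 was at 0.009, Grik1-211 at 0.191, Grik2-203 at -0.021 and Grik5-201 at 0.044. The cause was not tested. The number of shares without overlap was 5, and 3 among protein-coding isoforms only. It was 5 to 9 with each mouse left out and 12 without both libraries. That of subunit proportions was 1, and 0 with the longest protein-coding length and 2 with protein-coding isoforms only. It was 1 to 3 with each mouse left out and 3 without both libraries. Fewer mice overlap less often by construction.

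The mean proportions of Grik1 to Grik5 (3.91%, 11.7%, 7.71%, 14.4% and 62.2%) became 4.17%, 7.55%, 9.03%, 11.3% and 67.9% with the longest protein-coding length, 4.11%, 10.1%, 9.11%, 17.0% and 59.7% with protein-coding isoforms only, and 3.11%, 14.5%, 16.5%, 13.6% and 52.2% from counts without length. The mean Neto1 share of 47.2% became 49.6% and 59.5% under the first and last of these. For Grik1 isoforms, with 582 to 918 read pairs per mouse, the spread between mice was wider than the counting interval given, which leaves out error in the assignment of read pairs.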
